A study of Homo sapiens with 6 samples.

Results

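The genes described here encode the machinery that shortens the poly(A) tail of messenger RNA, removes its cap and degrades it from either end. They were chosen by name: 54 symbols, of which 54 matched 1 gene each among the 58395 genes counted in every library. They were sorted by role into 11 groups: CCR4-NOT subunits, the PAN2-PAN3 and PARN deadenylases, BTG/TOB adaptors, poly(A)-binding proteins, decapping factors, the LSM1-7 ring, 5′-3′ exonucleases, the exosome ring and cap, exosome and DIS3-family nucleases, UPF factors of nonsense-mediated decay, and the ZFP36 family.

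RNA was sequenced from 6 clonal lines of HEK293, an established line of human embryonic kidney origin. The control group was GST lines 2, 8 and 9, which express GST-3F, that is glutathione S-transferase with the tag the labels write as 3F. The other group was NOCT lines 4, 11 and 12, which express NOCT ∆(2-15)-3F, nocturnin lacking residues 2 to 15 with the same tag. Each library stands for 1 clone, so a difference between groups is read against differences between clones, and the promoter that drives the constructs is not given in the sources used here.

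Decay of most messenger RNAs begins with deadenylation, in which PAN2-PAN3 and then CCR4-NOT remove the tail that poly(A)-binding proteins cover. The shortened message is then decapped by DCP2 and digested by XRN1 from the 5′ end, or digested from the 3′ end by the exosome. Adaptors such as TOB and ZFP36 proteins bring CCR4-NOT to chosen messages, and the UPF proteins mark messages with premature stop codons. Nocturnin resembles the CCR4-type deadenylases in sequence and is known to act on the cofactors NADP and NADPH.

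The RefSeq promoter table (build GRCh38.p14) held a window for 44 of the 54 genes, each covering 250 bases before and 50 after the start. Shown are 4 genes with an unadjusted p under 0.05 between the groups for which 100 bases directly before the most 5′ exon in GENCODE release 29 held no exon of any gene. Capitals mark a GC box (GGGCGG on either strand), and positions count back from the RefSeq start.
EXOSC2: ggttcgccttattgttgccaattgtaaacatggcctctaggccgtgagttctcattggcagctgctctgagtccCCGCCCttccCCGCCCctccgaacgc
CNOT3: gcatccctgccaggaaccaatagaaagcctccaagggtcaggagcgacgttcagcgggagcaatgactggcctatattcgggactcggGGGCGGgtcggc
ZFP36L1: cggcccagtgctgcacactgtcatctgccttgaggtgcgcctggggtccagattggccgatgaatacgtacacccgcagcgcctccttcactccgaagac
UPF2: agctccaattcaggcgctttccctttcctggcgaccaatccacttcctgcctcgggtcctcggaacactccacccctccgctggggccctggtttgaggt

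The EXOSC2 stretch is chr9:130693621-130693720 on the plus strand and has GC boxes that begin at -65 and -55. The CNOT3 stretch is chr19:54137617-54137716 on the plus strand and has 1 GC box, at -57. The ZFP36L1 stretch (chr14:68796254-68796353, minus strand) and the UPF2 stretch (chr10:12043171-12043270, minus strand) held none of the 8 motifs searched. Over the whole windows, a GC box was found in 79.5% of the 44 members, 70.2% of the 11088 tested genes in the table and 44.6% of all 27305 windows. The ETS core CCGGAAG was found in 20.5%, 18.3% and 10.7% of these sets, and the TATA box TATAAA in 4.55% (BTG1 and EXOSC8), 5.75% and 12.0%. The YY1 core AAGATGGCG was in the windows of CNOT3, EXOSC2, EXOSC8 and LSM7, 9.09% of the members against 3.77% of tested genes and 1.85% of all windows. The cAMP response element TGACGTCA was found in XRN2 alone of the 44, the NRF1 palindrome in LSM7 alone and the AP-1 element TGACTCA in EXOSC8 alone. The serum response element core was in 0 of the 44. Both strands were searched, no motif contains another, and the motifs and the stretches were chosen after values were seen. The median GC content of the windows was 62.7% in the members and 65.3% in tested genes.

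The libraries held 19729745 to 24422406 gene counts, with 191 to 13708 counts per member in a library. The GST construct had 46 to 88 counts in GST lines and 0 to 1 in NOCT lines, and the NOCT construct had 3 to 7 and 46 to 82, as the labels say. Of 9 HEK293 markers, 7 were above 1 TPM in all 6 lines (NEFM and L1CAM were not), while markers of fibroblasts, blood, hepatocytes and differentiated kidney summed to at most 1.62 TPM each, with COL1A2, CD3E, HBB, TTR and UMOD at 0 in all 6 lines. The HEK293 markers summed to 582 to 823 TPM in GST lines and 718 to 1299 in NOCT lines. VIM was at 856 and 806 TPM in NOCT lines 4 and 11 against 353 to 534 elsewhere, and the part of this in the results below was not tested. NOCT lines 4 and 12 were among the least alike of the 15 pairs of lines. Their correlation of log2 CPM was 0.962 over all tested genes and 0.947 over the members, close to that of GST line 8 and NOCT line 4 (0.963 and 0.947), against 0.989 over the members for GST lines 8 and 9 (r across genes, which are not independent replicates). Without NOCT line 12, the number of genes past an adjusted p of 0.05 went from 10 to 893, so results are given with and without it where that matters.

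No gene of the decay machinery passed the test between NOCT and GST lines. An adjusted p under 0.05 (edgeR's quasi-likelihood test, with p-values adjusted by the Benjamini-Hochberg method across all 17261 tested genes) was reached by 0 of the 54 members and by 10 of all genes (0.0579%). The smallest adjusted p of a member was 0.204, for TOB2. DESeq2 also called 0 members (background 3.41%), as did limma voom (background 0.0927%) and an edgeR fit without a filter on low counts (background 2.57%). Limma on log2(TPM + 1) and on log2(TPM + 0.1) called 0 members too, where only 7 and 11 of all 17261 genes passed. Without NOCT line 12, edgeR called 3 members (BTG1, EXOSC5 and XRN2), against a background of 5.17% of all genes, and 13 members had an unadjusted p under 0.05 (24.1%, background 23.2%). In these bulk samples, fewer cells with a message and less message per cell cannot be told apart.

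The members' differences were small in size. The log2 fold change of NOCT against GST lines ran from -0.56 to 0.48, with a median of 0.04 over the members and 0.00 over all genes tested. The median size without sign was 0.13 in the members, 0.20 in all genes and 0.15 in the 9327 genes with a mean CPM (counts scaled to library size with TMM factors) in the members' range. The 95% interval of the fold change lay within 2-fold of no difference, in either direction, for 54 of 54 members, 70.5% of all genes and 93.9% of genes in that range, a count chosen after the values were seen.

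At an unadjusted p under 0.05 there were 9 members (16.7%), against a background of 13.9% of all genes. Of these, 5 were higher in NOCT lines (TOB2, CNOT3, DIS3L, ZFP36L1 and UPF2; 7.38% of all genes) and 4 were lower (EXOSC2, LSM6, BTG1 and DIS3L2; 6.52% of all genes). DESeq2 gave 8 members (background 13.5%), limma voom 9 (background 14.3%), and limma on log2(TPM + 1) 8 (background 14.2%). The groups did not overlap in CPM for 12 members (22.2%), near the background of 20.0%: 7 were higher in every NOCT line than in every GST line (10.5% of all genes) and 5 lower (9.54%). The split of directions moved with the scaling, in the members as in all genes. With the spike-in totals as library sizes, the median of all genes moved to 0.15 on the log2 scale, and 12 members had an unadjusted p under 0.05, with 12 higher in NOCT lines (background 17.8% of all genes) and 0 lower (background 2.64%).

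**Figure D1:**
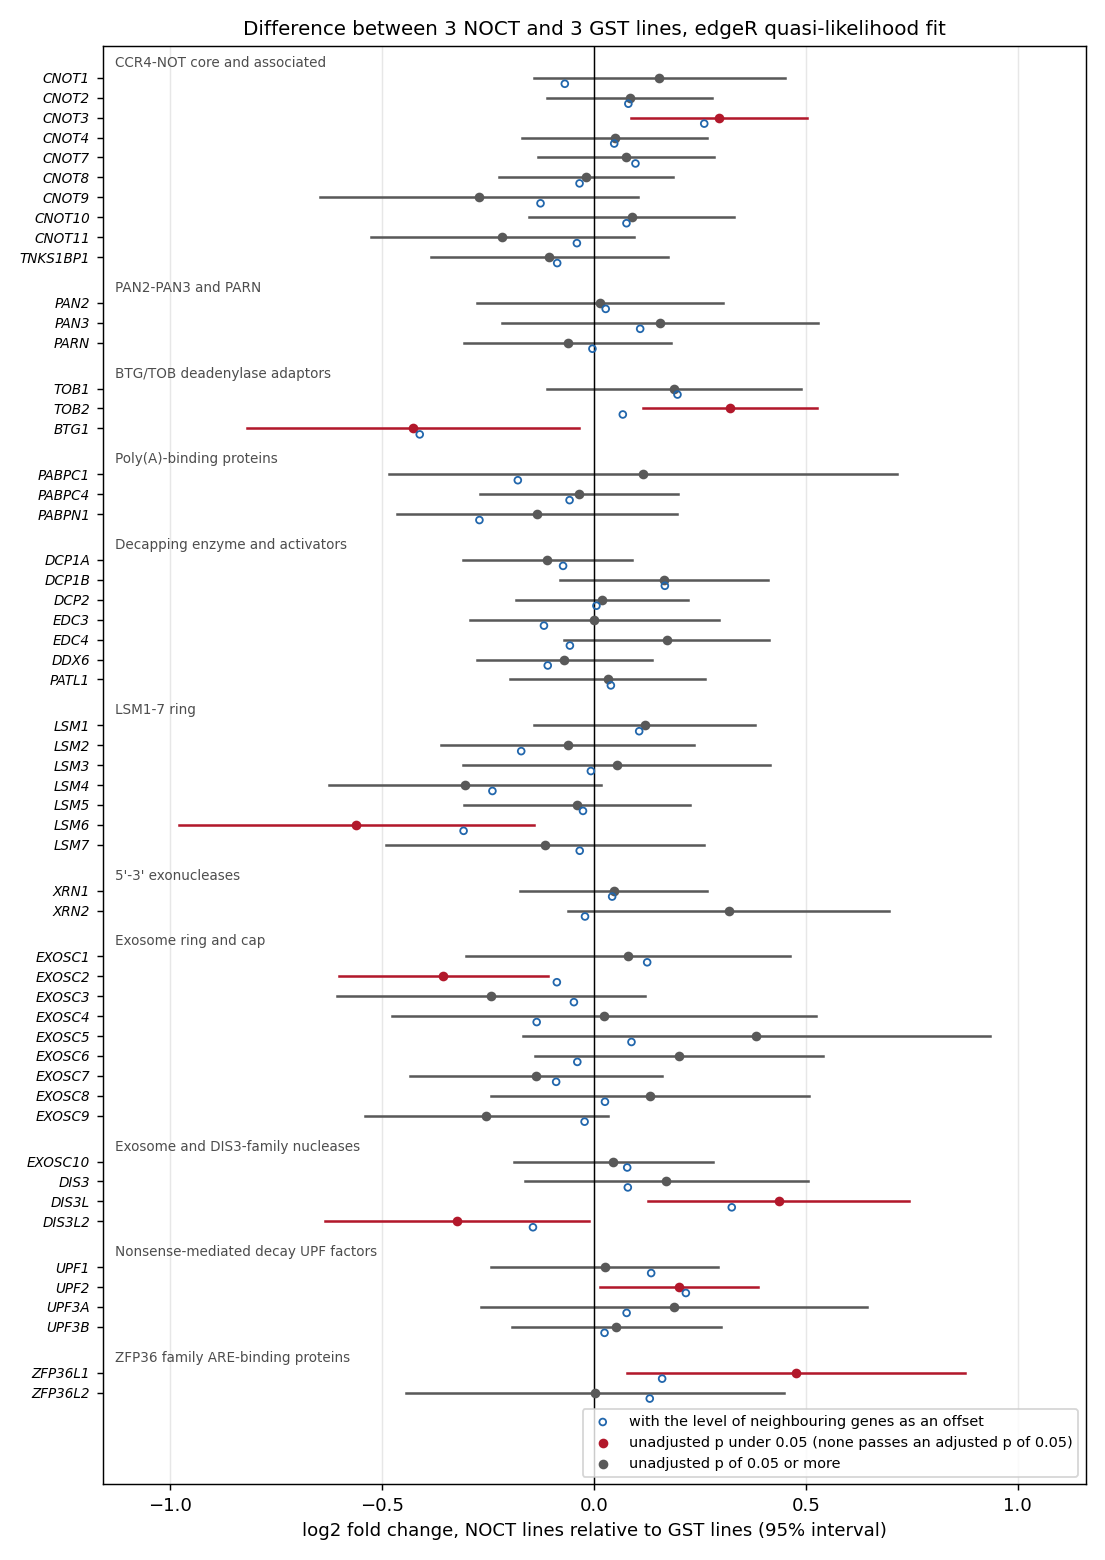
Log2 fold change of NOCT against GST lines for the 54 genes, ordered by role, from the edgeR quasi-likelihood fit to 3 lines per group. Filled points are estimates with 95% intervals (red where the unadjusted p is under 0.05), and open circles the estimate with the level of neighbouring genes as an offset. Every interval lies between -1 and 1, and no member reaches an adjusted p of 0.05.

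In CCR4-NOT, the main cytoplasmic deadenylase complex, 1 of the 10 genes had an unadjusted p under 0.05 and 0 passed the adjusted test. CNOT3, a subunit of the module that binds regulatory proteins (ENSG00000088038, chr19:54137717-54155708), was at 66.3, 66.7 and 68.3 CPM in GST lines 2, 8 and 9 and at 88.7, 81.1 and 76.9 CPM in NOCT lines 4, 11 and 12. The lowest NOCT line lay above the highest GST line. The means were 67.1 ± 1.08 and 82.2 ± 6.01 CPM (SD, n = 3 lines). The log2 fold change was 0.29, with an SE of 0.09 and an adjusted p of 0.229 (edgeR). It was 0.34 (adjusted p 0.0849, edgeR) without NOCT line 12 and 0.23 (adjusted p 0.481) without NOCT line 4. The scaffold CNOT1 was at 573, 420 and 440 CPM in GST lines and 539, 555 and 501 in NOCT lines, so the groups overlapped. Of the paired catalytic subunits, CNOT7 had a log2 fold change of 0.08 and CNOT8 of -0.02. CNOT9 and CNOT11, both on chromosome 2, had the lowest values of the complex, -0.27 and -0.22, and NOCT line 4 was their lowest line. The other genes, CNOT2, CNOT4, CNOT10 and TNKS1BP1, lay between -0.11 and 0.09.

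The PAN2-PAN3 complex trims long tails first, and PARN acts on tails of messages and small RNAs. All 3 genes had overlapping groups and log2 fold changes from -0.06 to 0.16. PAN3, the subunit that anchors the complex to poly(A)-binding protein, was highest in NOCT line 4, at 59.7 CPM against 40.3 to 53.1 in the other 5 lines.

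Among the BTG/TOB proteins, which link CCR4-NOT to its targets and restrain proliferation, TOB2 and BTG1 had estimates of opposite sign. TOB2 (ENSG00000183864, chr22:41433492-41447023) was at 48.9, 53.7 and 51.6 CPM in GST lines and 61.8, 63.9 and 67.2 CPM in NOCT lines, with no overlap. The means were 51.4 ± 2.43 and 64.3 ± 2.72 CPM (SD, n = 3). On the log2 scale the difference was 0.32 (SE 0.09), with the smallest unadjusted p of the 54 genes, 0.00675, and an adjusted p of 0.204 (edgeR). BTG1 (ENSG00000133639, chr12:92140278-92145897) was at 60.1, 47.9 and 54.5 CPM in GST lines and at 31.9, 38.9 and 50.0 CPM in NOCT lines. NOCT line 12 fell within the GST range and the other NOCT lines below it. The log2 fold change of BTG1 was -0.43 (SE 0.17, adjusted p 0.32), and without NOCT line 12 it was -0.61 with an adjusted p of 0.0444 (edgeR). Without NOCT line 4 it was -0.29 with an adjusted p of 0.589. TOB1 overlapped between groups, with a log2 fold change of 0.19. TOB2 and BTG1 each have 1 named pseudogene, and reads shared with a copy were not assigned to either. BTG1 also overlaps 1 gene on its strand.

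The poly(A)-binding proteins coat the tail, PABPC1 and PABPC4 in the cytoplasm and PABPN1 in the nucleus. PABPC1 (ENSG00000070756, chr8:100685816-100722809) was set apart by 1 line: it was at 224, 223 and 212 CPM in GST lines, 179 and 175 CPM in NOCT lines 4 and 11, and 361 CPM in NOCT line 12. Its log2 fold change was 0.12 (SE 0.26) over all lines and -0.31 (SE 0.09, adjusted p 0.0847, edgeR) without NOCT line 12, so the sign rests on that line. With the level of neighbouring genes as an offset, described below, it was -0.18. It has 13 named pseudogenes, and its count is uncertain to that extent. PABPC4 and PABPN1 had log2 fold changes of -0.04 and -0.14 and overlapping groups, and PABPN1 shares its place with the read-through gene BCL2L2-PABPN1.

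Of the 7 decapping genes, 0 had an unadjusted p under 0.05, and the log2 fold changes lay between -0.11 and 0.17. DCP2, the enzyme that cuts the cap, was at 151, 165 and 160 CPM in GST lines and 152, 159 and 171 CPM in NOCT lines, a log2 fold change of 0.02 with a 95% interval of -0.19 to 0.22. The cofactors DCP1A and DCP1B, named here after their values were seen, had log2 fold changes of -0.11 and 0.17, and DCP1A was at 0.04 with spike-in totals as library sizes. DCP1A was at 46.0, 45.9 and 47.5 CPM in GST lines and 43.5, 42.7 and 43.0 CPM in NOCT lines. DCP1B was at 24.1, 23.9 and 22.8 CPM in GST lines and 27.2, 26.7 and 25.4 CPM in NOCT lines. Neither pair of groups overlapped, and the edgeR adjusted p was 0.608 for DCP1A and 0.529 for DCP1B. The activators EDC3, EDC4, DDX6 (a helicase of P-bodies) and PATL1 had overlapping groups.

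The LSM1-7 ring binds the shortened tail and promotes decapping, and LSM2 to LSM7 also serve in the nuclear LSM2-8 ring on U6 RNA. LSM6 (ENSG00000164167, chr4:146175685-146200000) had the lowest log2 fold change of the 54 genes. It was at 25.9, 16.6 and 18.8 CPM in GST lines and 14.5, 13.1 and 13.9 CPM in NOCT lines. GST line 2 stood high, and the other GST lines still lay above every NOCT line. The means were 20.4 ± 4.85 and 13.8 ± 0.746 CPM (SD, n = 3), a log2 fold change of -0.56 (SE 0.18, adjusted p 0.244, edgeR) that was -0.36 (adjusted p 0.373) without GST line 2. LSM6 has 1 named pseudogene and overlaps 1 gene on its strand, so its count is less certain. LSM4 had a log2 fold change of -0.30 with overlapping groups. That of LSM4 was -0.46 (adjusted p 0.0542, edgeR) without NOCT line 12 and -0.23 (adjusted p 0.655) without NOCT line 11. LSM1, the subunit that marks the cytoplasmic ring, was 20.8 ± 0.996 CPM in GST and 22.6 ± 0.829 CPM in NOCT lines (adjusted p 0.673, edgeR). Its groups did not overlap, but only just: GST line 8 was at 22.0 CPM and NOCT line 4 at 22.1 CPM. The other ring genes lay between -0.12 and 0.05.

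XRN1 digests decapped messages in the cytoplasm and XRN2 acts on nuclear RNA. XRN1 differed little, 85.3 ± 3.59 against 88.1 ± 7.62 CPM (SD, n = 3). XRN2 (ENSG00000088930, chr20:21303304-21389827) was at 122, 139 and 139 CPM in GST lines, 195 and 180 CPM in NOCT lines 4 and 11, and 123 CPM in NOCT line 12. NOCT line 12 was thus at the level of GST line 2. The log2 fold change of XRN2 was 0.32 (SE 0.16, adjusted p 0.432) over all lines and 0.49 (SE 0.10, adjusted p 0.0306, edgeR) without NOCT line 12. It was 0.18 (adjusted p 0.764) without NOCT line 4.

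The exosome ring and cap form a barrel that threads RNA to the nucleases. EXOSC2, a cap subunit (ENSG00000130713, chr9:130693721-130704894), was at 94.0, 106 and 110 CPM in GST lines and 89.6, 78.3 and 74.3 CPM in NOCT lines, without overlap. The means were 103 ± 8.32 and 80.7 ± 7.90 CPM (SD, n = 3), a log2 fold change of -0.36 (SE 0.11, adjusted p 0.224, edgeR). EXOSC5, a ring subunit (ENSG00000077348, chr19:41386374-41397479), was at 20.2, 17.3 and 22.0 CPM in GST lines, 32.2 and 28.8 CPM in NOCT lines 4 and 11, and 16.5 CPM in NOCT line 12, the lowest of the 6. Its log2 fold change was 0.38 (SE 0.24, adjusted p 0.515) over all lines and 0.62 (SE 0.14, adjusted p 0.0459, edgeR) without NOCT line 12, but 0.19 (adjusted p 0.853) without NOCT line 4 and 0.29 without NOCT line 11. EXOSC3, a cap subunit, had a log2 fold change of -0.24 (adjusted p 0.532, edgeR). Its groups did not overlap, but only just: GST line 2 was at 29.5 CPM and NOCT line 11 at 29.2 CPM. The fold change of EXOSC3 was -0.09 without NOCT line 4 and -0.34 without NOCT line 11. The remaining ring and cap genes had overlapping groups and log2 fold changes from -0.25 (EXOSC9) to 0.20 (EXOSC6).

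The catalytic members of this branch are EXOSC10 in the nucleus, DIS3 in the nuclear exosome, DIS3L in the cytoplasmic exosome, and DIS3L2, which degrades uridylated RNA without the exosome. DIS3L (ENSG00000166938, chr15:66293217-66333898) was at 41.0, 39.9 and 42.4 CPM in GST lines and 53.3, 47.1 and 66.3 CPM in NOCT lines, without overlap. The means were 41.1 ± 1.27 and 55.6 ± 9.81 CPM (SD, n = 3), a log2 fold change of 0.44 (SE 0.13, adjusted p 0.23, edgeR) that was 0.29 (adjusted p 0.159) without NOCT line 12. DIS3L2 (ENSG00000144535, chr2:231961245-232344350) was at 34.7, 38.0 and 34.5 CPM in GST lines and 23.9, 29.0 and 32.7 CPM in NOCT lines. Its groups did not overlap, with NOCT line 12 just under the lowest GST line, and the log2 fold change was -0.32 (SE 0.14, adjusted p 0.34, edgeR). The fold change was -0.43 (adjusted p 0.0984, edgeR) without NOCT line 12 and -0.22 (adjusted p 0.608) without NOCT line 4. DIS3L2 too has 1 named pseudogene, and it overlaps 2 genes on its strand. DIS3 was at 152 CPM in NOCT line 4 and at 105 to 113 CPM in the other 5 lines, and EXOSC10 had overlapping groups and a log2 fold change of 0.05.

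Of the UPF factors, which act in nonsense-mediated decay, UPF2 (ENSG00000151461, chr10:11920022-12043170) was at 60.5, 62.1 and 63.0 CPM in GST lines and 71.6, 71.2 and 70.5 CPM in NOCT lines, without overlap. The means were 61.9 ± 1.28 and 71.1 ± 0.579 CPM (SD, n = 3), a log2 fold change of 0.20 (SE 0.08, adjusted p 0.328, edgeR). The helicase UPF1 was at 0.02 and UPF3B at 0.05 on the log2 scale. UPF3A was at 39.3 CPM in NOCT line 4 and at 23.5 to 27.1 CPM in the other 5 lines.

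The ZFP36 family binds AU-rich elements and recruits deadenylases. ZFP36L1 (ENSG00000185650, chr14:68787660-68796253) was at 24.3, 15.3 and 18.4 CPM in GST lines and 25.9, 28.0 and 26.8 CPM in NOCT lines. The lowest NOCT line lay just above GST line 2, and the means were 19.3 ± 4.55 and 26.9 ± 1.02 CPM (SD, n = 3). Its fold change, 0.48 on the log2 scale, was the highest of the 54 genes (SE 0.17, adjusted p 0.281, edgeR). ZFP36L2 was at 29.9 ± 6.03 and 30.0 ± 5.82 CPM, with a log2 fold change of 0.00 and a 95% interval of -0.44 to 0.45.

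**Figure D2:**
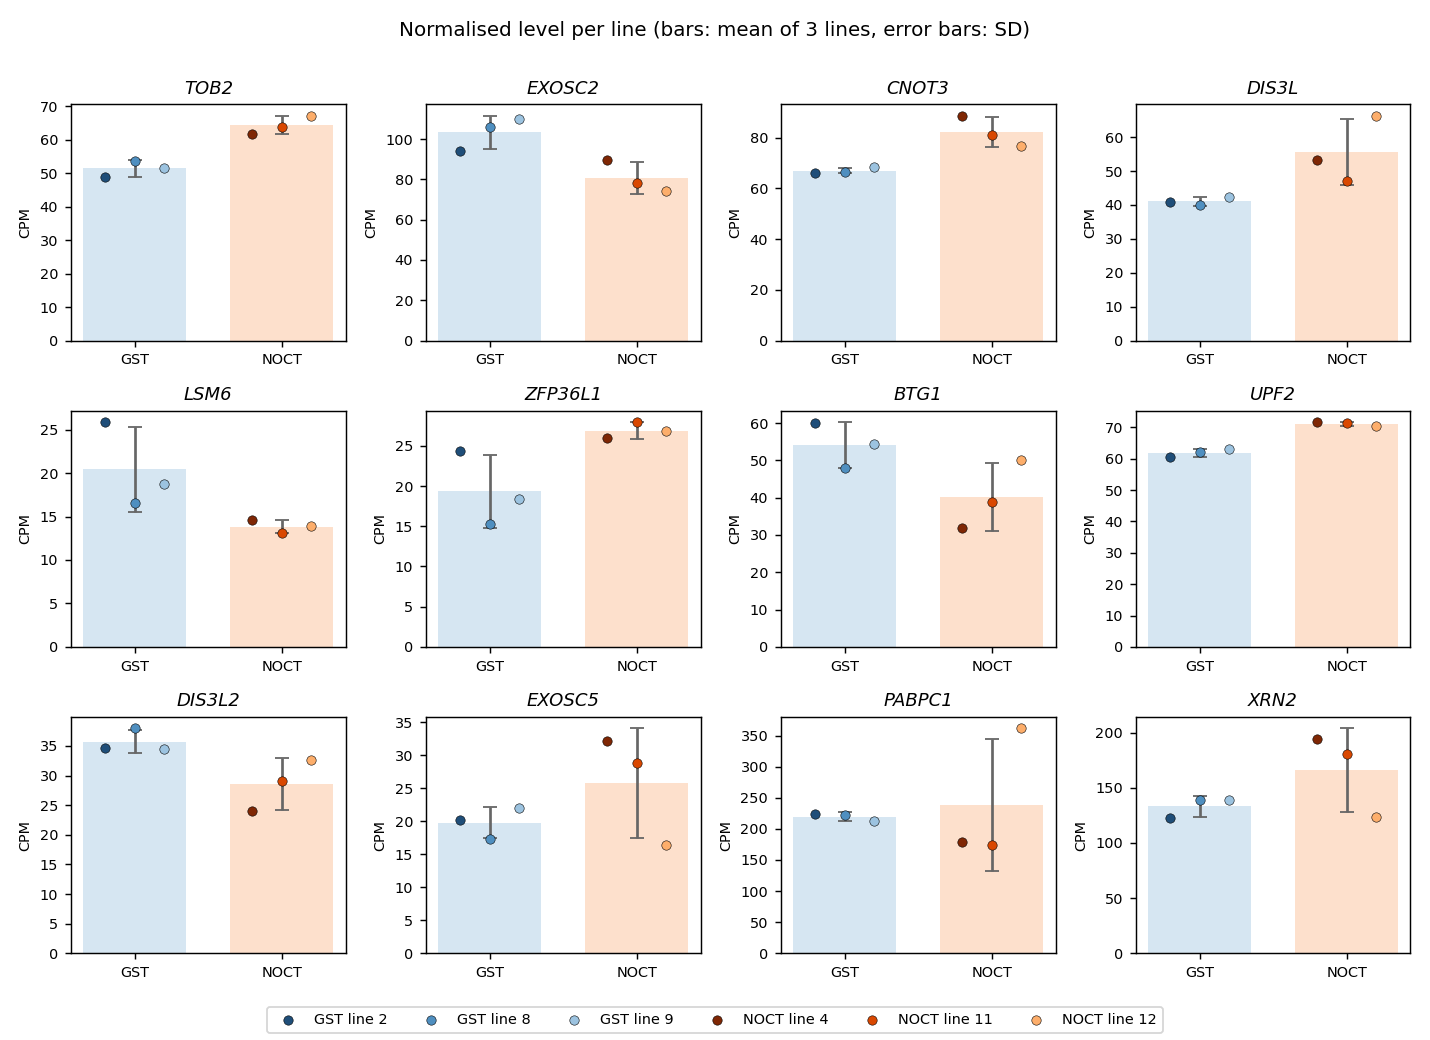
Normalised level (TMM-scaled CPM, linear axes from 0) of 12 genes in each line: the 9 with an unadjusted p under 0.05, EXOSC5 and PABPC1, which with LSM6 varied most over the 6 lines, and XRN2. Points are lines, bars are means of 3 lines and error bars are SDs. NOCT line 12 lies apart from the other NOCT lines in PABPC1 (361 CPM), EXOSC5 (16.5 CPM) and XRN2 (123 CPM).

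The lines differed among themselves in a way that followed the chromosome. For each gene and line, the deviation of log2 CPM from the mean of the 6 lines was set beside the median deviation of up to 50 tested genes on each side. Over the 324 values of the 54 members, the deviation of a gene and that of its neighbours had a Pearson r of 0.766 and a slope of 1.01, against an r of 0.497 in 9321 genes of the same CPM range. These points share libraries, and members on the same arm share neighbours, so no p is given. The neighbours accounted for 58.6% of the variance of the members' deviations and for 24.7% in the genes of that range. Other measures differed less between these sets. Gene and neighbours had the same sign in 71.3% of all values of the members and 66.9% of those of the range. Subtracting the neighbours' deviation lowered the root mean square deviation over the lines in 77.8% of members and 67.6% of genes of the range. Of the 51 deviations of a member beyond 0.25 on the log2 scale, 49 had the sign of the neighbours (96.1%), compared with 80.5% of such deviations in genes of the range. A shared sign was counted however small the neighbours' value, so it overstates how far members followed their neighbours. In NOCT line 4 it includes BTG1 (-0.53, neighbours at -0.0044) and LSM4 (-0.28, neighbours at -0.0011). The value of 0.25 was chosen after the data were seen, and no test set the members against the other genes.

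On some chromosomes, genes of different role were high or low in the same lines; the examples were chosen after their values were seen. On chromosome 13, PAN3, EXOSC8, DIS3 and UPF3A were all above their means in NOCT line 4, with deviations of 0.35, 0.37, 0.41 and 0.53 and neighbours at 0.29 to 0.41. On chromosome 2, CNOT9, CNOT11, DIS3L2 and ZFP36L2 were all below their means in the same line, by a median deviation of -0.39 with the neighbours at -0.37. On chromosome 4, LSM6 (0.63) and EXOSC9 (0.37) were high in GST line 2, where the neighbours of both were at 0.36. On chromosome 8, PABPC1 (0.70) and EXOSC4 (0.44) were high in NOCT line 12, with neighbours at 0.46 and 0.50. LSM1 and CNOT7, elsewhere on that chromosome, were at 0.03 and 0.10 in the same line, with their own neighbours at 0.05 and 0.02. For EXOSC5 the neighbours were at 0.53, 0.45 and -0.64 in NOCT lines 4, 11 and 12, beside 0.54, 0.38 and -0.42 in the gene itself. XRN2 in these lines was at 0.40, 0.29 and -0.26, with neighbours at 0.37, 0.31 and -0.20. Elsewhere on chromosome 19 the genes differed. CNOT3 was at 0.26, 0.13 and 0.05 in NOCT lines 4, 11 and 12, and its neighbours, at 0.24, 0.08 and -0.16, had the signs of those of EXOSC5. LSM4 did not share the pattern of EXOSC5: it was at -0.28 and -0.31 in NOCT lines 4 and 11, with its neighbours at 0.00 and -0.06. Other deviations also had no counterpart in the neighbours. BTG1 was at -0.53 and PABPC1 at -0.31 in NOCT line 4, EXOSC1 was at -0.36 in GST line 2, and the neighbours were at 0.00, -0.02 and 0.00. ZFP36L2 was at -0.32 in GST line 8 with its neighbours at 0.10.

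**Figure D3:**
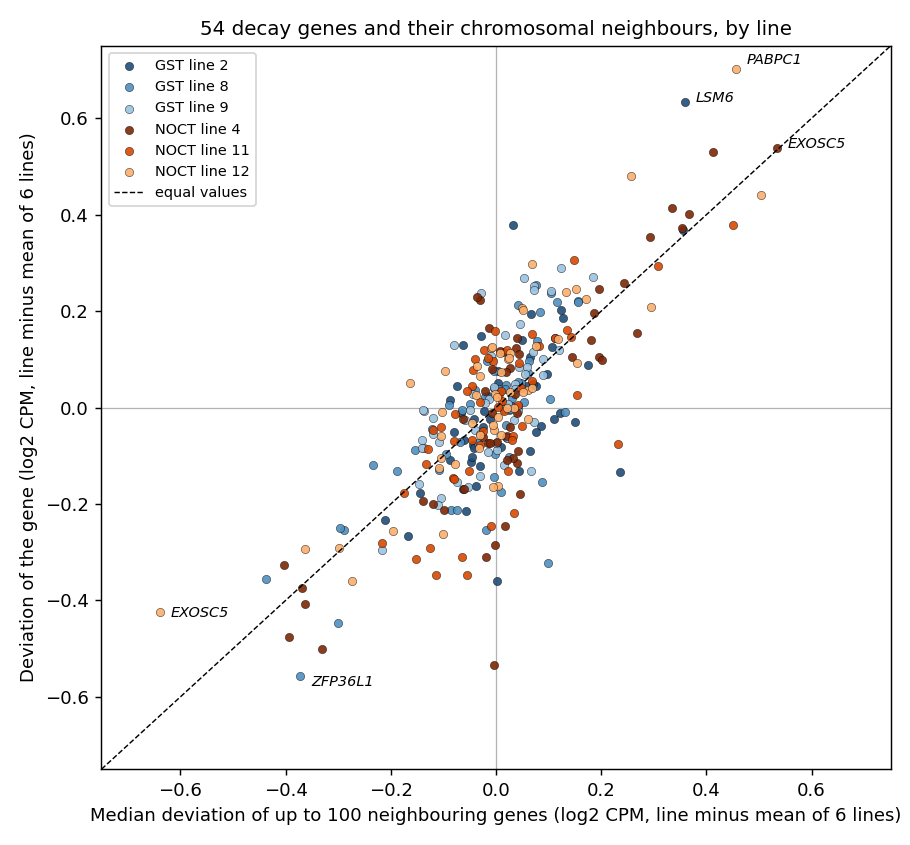
Deviation of each of the 54 genes from its mean over the 6 lines (y axis, log2 CPM) against the median deviation of up to 50 neighbouring genes on each side (x axis, log2 CPM), with 1 point per gene and line. The dashed line marks equal values. The points follow the line (slope 1.01, r 0.766 over 324 points that share libraries), and PABPC1 in NOCT line 12 and EXOSC5 in NOCT lines 4 and 12 lie far from the origin along it.

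With the neighbours' level as an offset in the edgeR fit, 6 members had an unadjusted p under 0.05 (background 14.5%) and 0 passed the adjusted test (background 0.214%). These were CNOT3 (0.26), DIS3L (0.32), UPF2 (0.22), BTG1 (-0.41), LSM6 (-0.31) and PABPN1 (-0.27), and 5 of the 6 were among the 9 without the offset. The fold change was smaller in size with the offset in 36 of 54 members and in 56.6% of all genes. TOB2 went from 0.32 to 0.07, EXOSC2 from -0.36 to -0.09, ZFP36L1 from 0.48 to 0.16, XRN2 from 0.32 to -0.02 and EXOSC5 from 0.38 to 0.09. Among the members that grew in size, PABPN1 went from -0.14 to -0.27, LSM2 from -0.06 to -0.17 and UPF1 from 0.02 to 0.13. What sets the level shared along a chromosome was not tested.

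The spread between clones of one group was close to that of other genes at this level. The median SD of log2 CPM within groups was 0.149 in the members and 0.157 in the 9327 genes of the same CPM range. It ran from 0.021 in DCP1A to 0.422 in the most variable member, PABPC1. In 36 of the 54 members (66.7%) the NOCT lines had the larger SD, as in 61.6% of genes of the range.

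Per unit of length, most of these genes were expressed above the typical tested gene. The mean TPM ran from 8.11 in DIS3L2 to 138 in PABPC1, with a median of 30.9 against 10.2 in all tested genes, and 53 of 54 members lay above that median. The highest 3 could not be ordered beyond their spread: PABPC1 ranged from 109 to 215 TPM over the lines, CNOT1 from 113 to 154 and XRN2 from 95.6 to 175. Within groups, the levels were far apart. In CCR4-NOT, CNOT1 was at 134 TPM and TNKS1BP1, an associated protein, at 11.1. In the LSM1-7 ring, LSM4 was at 95.2 and LSM6 at 12.2 TPM, a ratio of 7.78. In the exosome ring and cap, EXOSC6 was at 66.6 and EXOSC7 at 10.7 TPM, and among the nucleases EXOSC10 was at 75.6 and DIS3L2 at 8.11 TPM. XRN2 was at 126 and XRN1 at 20.8 TPM. The length of a gene is here the union of all its annotated exons, so comparisons between genes rest in part on it. It was 3437 bases for XRN2, 11982 for XRN1 and 11337 for DIS3L2. The extremes of the other groups were PARN (54.5) and PAN3 (21.4), TOB2 (36.6) and BTG1 (27.7), DDX6 (54.8) and EDC3 (14.8), UPF1 (33.8) and UPF3A (13.8), and ZFP36L2 (23.2) and ZFP36L1 (12.9), all in mean TPM.

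**Figure D4:**
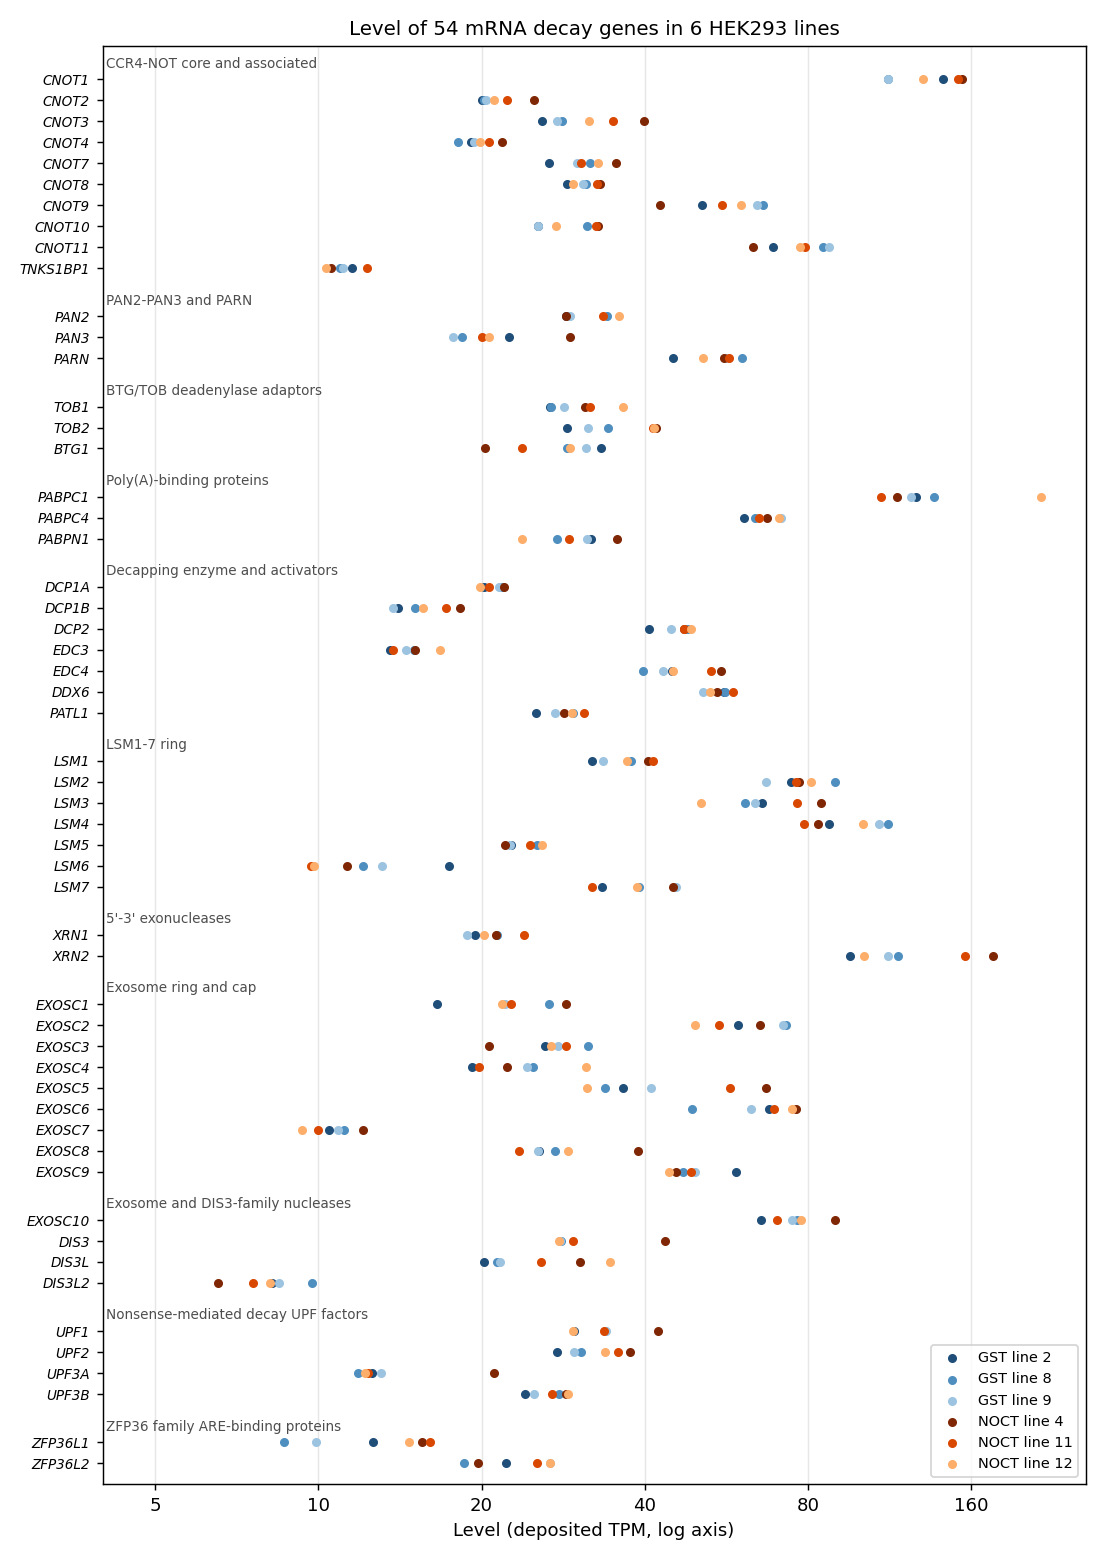
Level of the 54 genes in the 6 lines (deposited TPM, log axis), ordered by role, with 1 point per line and no error bars. The means run from 8.11 TPM (DIS3L2) to 138 TPM (PABPC1), and PABPC1 in NOCT line 12 is the highest single value, 215 TPM.

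The 54 genes together summed to 2057, 2198 and 2157 TPM in GST lines 2, 8 and 9 and to 2396, 2259 and 2271 TPM in NOCT lines 4, 11 and 12, about 0.206% to 0.240% of all TPM. The median difference of log2(TPM + 1) over all tested genes was 0.07. The groups did not overlap in this sum, and the smallest two-sided p that an exact permutation test of 3 lines against 3 can give is 0.1. TPM is a share of a fixed total per line, and the highest tested gene had a mean of 457230 TPM. The members' sum therefore also depends on the level of that gene, and its part in the difference was not tested. Of this sum, CCR4-NOT genes held 20.0% ± 0.308 in GST and 19.8% ± 0.950 in NOCT lines (SD, n = 3), and the exosome ring and cap 15.3% ± 0.482 and 14.8% ± 0.853. The LSM1-7 ring held 16.2%, 17.2% and 16.4% in GST lines and 15.2%, 15.0% and 15.2% in NOCT lines. It was the 1 group of 11 in which the lines did not overlap, named after all 11 were seen. Of all tested genes, 20.0% had groups that did not overlap in CPM, and no such share was computed for sets. Of the 7 ring genes, 1 had an unadjusted p under 0.05 and 0 passed the adjusted test (edgeR). Poly(A)-binding proteins held 13.6% in NOCT line 12 against 8.98% to 10.7% in the other lines. The exonucleases held 8.20% and 7.95% in NOCT lines 4 and 11 against 5.36% to 6.30% in the others.

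**Figure D5:**
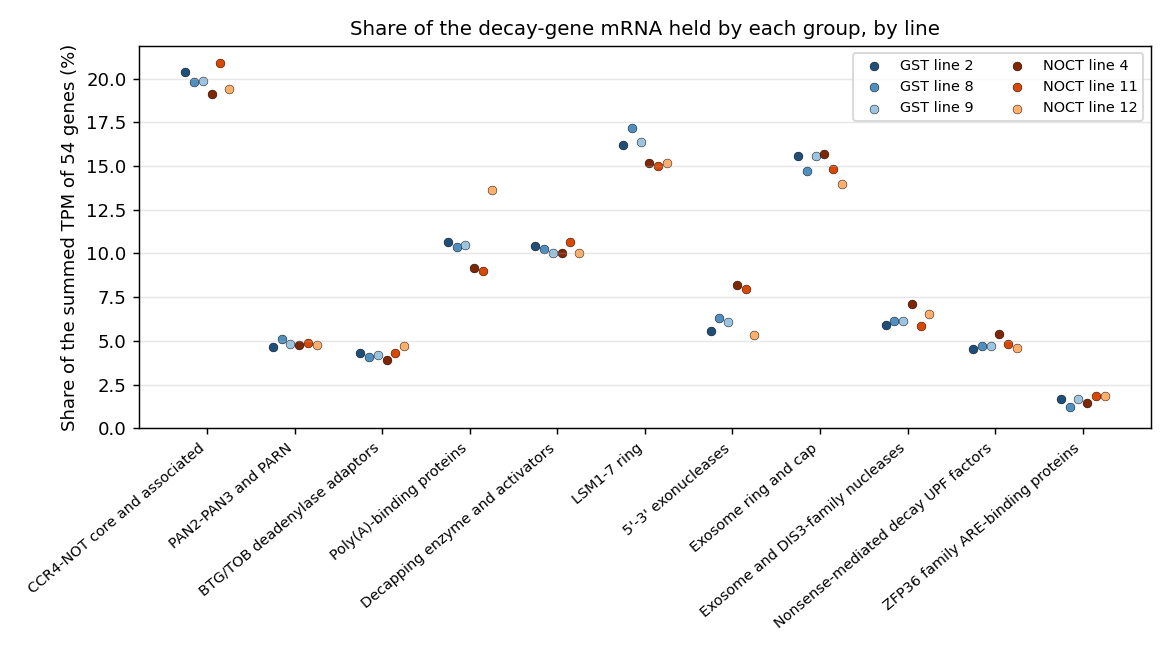
Share of the summed TPM of the 54 genes held by each of the 11 groups (%), with 1 point per line and no error bars. GST and NOCT lines overlap in 10 groups, and in the LSM1-7 ring the GST lines (16.2% to 17.2%) lie above the NOCT lines (15.0% to 15.2%). That ring was singled out after all 11 groups were seen, and its difference was not tested.

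Of 91 genes in 7 further lists (CCR4-type subunits, P-body, exosome cofactor, uridylyltransferase, nonsense-mediated decay, microRNA silencing and sequence-specific decay genes), 86 had enough counts to be tested. An adjusted p under 0.05 was reached by 0 of them (background 0.0579%) and an unadjusted p under 0.05 by 10 (11.6%, background 13.9%), 5 in each direction. DESeq2 called PUM2 and EIF4ENIF1, and limma voom called 0. EIF4ENIF1, which carries eIF4E into P-bodies, was at 40.5, 39.6 and 42.0 CPM in GST lines and 51.4, 54.3 and 57.6 CPM in NOCT lines, a log2 difference of 0.42 (adjusted p 0.155, edgeR) that was 0.12 with the neighbour offset. PUM2, a Pumilio protein that recruits CCR4-NOT, was at 97.6, 86.7 and 81.1 CPM in GST lines and 55.0, 70.9 and 55.7 CPM in NOCT lines, a log2 difference of -0.55 (adjusted p 0.165, edgeR) that was -0.26 with the offset. The log2 fold changes of the other genes named by the rule were 0.30 for TNRC6B (a silencing scaffold), 0.31 for CPEB4, 0.35 for ZC3H18, -0.25 for PAPD7, -0.38 for RNPS1 and -0.27 for SMG1 (the kinase of UPF1). TNRC6B and EIF4ENIF1 lie on chromosome 22 with TOB2, and TNRC6B was 0.03 with the offset. The CCR4-type catalytic subunits CNOT6 and CNOT6L had log2 fold changes of -0.16 and -0.28 and did not pass.

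In the authors' deposited table, 0 of the 54 members had an adjusted p under 0.05, against 490 of 17058 genes (2.87%), and 8 had a p under 0.05 (background 10.5%). The smallest adjusted p of a member in the authors' deposited table was 0.103, for LSM6. Its fold changes had the same sign as the edgeR estimates for 52 of 54 members.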

How the data were processed

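Strand-specific, ribosomal-RNA-depleted RNA-seq of 6 clonal lines was used, 3 per group. The submitters' processing notes name cutadapt 1.8.1, Trimmomatic 0.33, STAR 2.5.2b, HTSeq 0.6.1p1, DESeq2 1.16.1 and build GRCh38; the annotation release is not given in the sources used here. The authors deposited raw read counts per gene, a TPM table and a DESeq2 table with log2 fold changes, standard errors and p-values; its mean normalised counts (a signal) and test statistics (a score), also made by the authors, were not used. The lengths behind the deposited TPM equal GENCODE 29 exon unions within 1% for 54 of 54 members. Gene coordinates are from GENCODE 29 on GRCh38.

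The 5 rows that name no gene (42.9% to 47.1% of the reads in a file), 92 spike-ins and 2 construct rows stayed out of library sizes and tests. edgeR 4.0.16 (R 4.3.3) fitted the counts with TMM, filterByExpr and the quasi-likelihood test over 17261 genes, threshold 0.05; the biological coefficient of variation was 19.7%. SEs and 95% intervals come from the F statistic. Log values for neighbours used a prior count of 2, and neighbours a mean of at least 1 CPM. Alternatives were DESeq2 1.42.0, limma 3.58.1 (voom, or log2(TPM + 1) and log2(TPM + 0.1)), other scalings, no filter, the neighbour offset and leaving out each line. The fit was tested on simulated counts, where false calls ran above the nominal rate and 505 of 1000 genes changed 2-fold were called. Smaller changes, such as those estimated for the members, were not simulated. The authors' direction was read from the construct rows: NOCT 1.61 and GST -1.93 (log2, the authors' deposited table).

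The members, the lists and the neighbour offset were chosen with earlier results of these data known. The rule named members with an unadjusted p under 0.05, the highest and lowest TPM of each group and the 3 most variable members. Counting intervals were not computed, and 12 members have named pseudogenes and 18 overlap a gene on the same strand. The labels call the lines biological replicates.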

Additional observations from a re-analysis of the deposited data

How the results depend on the processing

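No paired analysis was possible because the GST and NOCT lines share no replicate number in the labels. Over 14 alternatives, 13 called 0 members, and leaving out NOCT line 12 called 3 (BTG1, EXOSC5 and XRN2) while 893 of 17261 genes passed (5.17%), so leaving out single lines gave 0 to 3 members. The count over all genes was 10, and it was 508 with DESeq2, 16 with limma voom, 22 with spike-in totals, 888 with no filter on low counts, 37 with the neighbour offset and 0 to 893 on leaving out a line (5 without GST line 2, 6 without GST line 8, 0 without GST line 9, 1 without NOCT line 11). The other decay genes called were 0, and 2 with DESeq2, 2 with no filter (PUM2 and HNRNPD) and 0 to 1 on leaving out a line (ZFP36, without NOCT line 12). The members' median log2 fold change of 0.04 was 0.186 with spike-in totals (0.152 over all genes), 0.114 with log2(TPM + 1) (0.072 over all genes), 0.116 with log2(TPM + 0.1) (0.084 over all genes), -0.0057 with the neighbour offset and 0.0020 to 0.049 on leaving out a line. PABPC1 reversed, to -0.18 with the offset and to -0.31 without NOCT line 12 (-0.31 to 0.29 on leaving out a line), and BTG1 (-0.61) and EXOSC5 (0.62) passed the threshold without that line. The other 150 of the 154 values of 11 named members kept their direction and their side of the threshold. These members were named for a small p or a large spread. Over all 54 members, 11 had the other sign with spike-in totals, the largest of them 0.138 in size with TMM. The cause of these shifts was not tested. CPM per kilobase gave the same shares as TPM because both use the same lengths, so it tests little. Each member had 191 or more counts in every library, and each group 3 clones.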

Other observations

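Ratios between paralogs or partners, taken from TPM within each line, were compared for 9 pairs. DCP1A to DCP1B was 1.44, 1.45 and 1.57 in GST lines 2, 8 and 9 and 1.20, 1.20 and 1.27 in NOCT lines 4, 11 and 12. This was the 1 pair of 9 in which the groups did not overlap, singled out after all were seen. The ratio restates the separation of the 2 genes given above, which had adjusted p values of 0.608 and 0.529 (edgeR). Of all tested genes, 20.0% had groups that did not overlap in CPM, and no such share was computed for ratios. The ratio of the catalytic subunits CNOT7 to CNOT8 was 0.971 ± 0.0442 in GST and 1.04 ± 0.0913 in NOCT lines (SD, n = 3). PABPC1 to PABPC4 was 3.04 in NOCT line 12 and 1.68 to 2.14 in the other 5 lines. XRN2 to XRN1 was 8.25 in NOCT line 4 and 4.91 to 6.51 elsewhere. UPF3B exceeded UPF3A in all 6 lines, by 1.36 times in NOCT line 4 and 1.91 to 2.36 times elsewhere. DIS3 exceeded DIS3L in 5 lines (1.15 to 1.43 times) and was 0.805 of it in NOCT line 12.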
